A study of Mus musculus with 7 samples.

Results

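Messenger RNA for the machinery that copies DNA was followed in mouse granulocytes that were knockout (KO, 3 libraries) or wild type (WT, 4 libraries) for Alox15, which encodes arachidonate 15-lipoxygenase. The 38 genes were taken by symbol from a list of G1/S and DNA replication genes, all 38 had a row in the deposited table of 51789 genes, and all 38 passed the filter on low counts among 12506 genes tested. All libraries carry the label untreated. The strain, age and sex of the animals, the tissue the granulocytes came from, the sorting and the deleted part of Alox15 are not given in the sources used here. Whether replicates were separate animals is not given either, so a p-value reflects only how much these libraries differ from each other, part of which may be technical.

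Before a cell divides, the origin recognition complex and the loading factors Cdc6 and Cdt1 place the MCM2-7 helicase on DNA, and Cdc45 and the GINS complex switch it on. Primase and the DNA polymerases then copy both strands, held by the sliding clamp PCNA, while nucleotide enzymes supply the building blocks and chromatin factors rebuild nucleosomes and methylation. Many of these genes are known targets of E2F transcription factors and are transcribed as cells enter S phase. Mature neutrophils, the main granulocytes, have left the cell cycle, whereas their bone marrow precursors and activated lymphocytes divide.

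Libraries were made with a QuantSeq kit, which counts tags near the 3′ end of transcripts, and held 5250060, 3228292 and 5348256 counts in KO and 3606843, 5657192, 4981010 and 3907353 in WT. Levels are in CPM, counts scaled to a common library size by TMM normalisation, and are compared within a gene. Alox15 had 1, 0 and 0 counts in KO and 0 in all 4 WT libraries, so it does not check the genotype labels. All 10 mature neutrophil markers were present in every library, but T cell markers were present too. By Xist and Y-linked transcripts KO 2 and KO 3 were female and KO 1 and all WT libraries male. The same 2 libraries have another stem in their sample description than the other 5, so sex and stem cannot be told apart from part of the genotype contrast.

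Promoters of these genes are shown because many of the genes are known targets of E2F factors. Whether promoter letters relate to levels across the libraries was not tested. RefSeq promoter windows (GRCm38.p6, 250 bases before to 50 after an annotated start) matched 30 of the 38 members, in 35 windows. Mcm4, Gins1, Gins2, Gins4, Prim2, Pole, Rfc2 and Ccne2 had no entry. The E2F letters searched were TTTCCCGC, TTTCGCGC, TTTGCCGC and TTTGGCGC on both strands, and the CCAAT box was searched as CCAAT on both strands. The 250 bases before the RefSeq start used for 5 members follow, 5′ to 3′ along the gene, with each match in capitals. A run of 8 or more capitals is an E2F match and a run of 5 is a CCAAT box. In the GENCODE M21 annotation Cdc6 begins at 98907801, so its stretch lies wholly inside the gene. Part of the Pcna stretch and the end of the Rrm2 stretch also lie inside their genes.
Mcm5 (chr8:75109259-75109508, plus strand): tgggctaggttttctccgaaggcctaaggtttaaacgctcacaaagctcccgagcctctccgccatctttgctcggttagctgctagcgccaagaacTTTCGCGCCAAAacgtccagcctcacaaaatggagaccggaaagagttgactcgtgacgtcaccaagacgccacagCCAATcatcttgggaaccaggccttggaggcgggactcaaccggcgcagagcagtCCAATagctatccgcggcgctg
Mcm6 (chr1:128359706-128359955, minus strand): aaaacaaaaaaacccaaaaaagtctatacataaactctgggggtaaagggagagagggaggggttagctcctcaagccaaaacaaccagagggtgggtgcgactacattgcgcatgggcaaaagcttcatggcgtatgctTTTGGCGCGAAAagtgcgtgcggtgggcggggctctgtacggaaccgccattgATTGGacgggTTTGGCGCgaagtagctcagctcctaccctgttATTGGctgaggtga
Cdc6 (chr11:98907901-98908150, plus strand): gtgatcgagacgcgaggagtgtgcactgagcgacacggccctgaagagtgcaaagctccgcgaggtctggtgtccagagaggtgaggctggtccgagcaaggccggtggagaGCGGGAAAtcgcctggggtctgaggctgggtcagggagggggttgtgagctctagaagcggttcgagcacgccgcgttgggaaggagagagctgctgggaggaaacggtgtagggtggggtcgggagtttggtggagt
Pcna (chr2:132253181-132253430, minus strand): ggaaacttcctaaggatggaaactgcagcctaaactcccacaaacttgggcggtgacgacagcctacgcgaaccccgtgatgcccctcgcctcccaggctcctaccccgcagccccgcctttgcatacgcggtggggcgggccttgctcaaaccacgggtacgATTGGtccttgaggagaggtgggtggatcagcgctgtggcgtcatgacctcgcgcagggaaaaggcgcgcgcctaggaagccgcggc
Rrm2 (chr12:24708004-24708253, plus strand): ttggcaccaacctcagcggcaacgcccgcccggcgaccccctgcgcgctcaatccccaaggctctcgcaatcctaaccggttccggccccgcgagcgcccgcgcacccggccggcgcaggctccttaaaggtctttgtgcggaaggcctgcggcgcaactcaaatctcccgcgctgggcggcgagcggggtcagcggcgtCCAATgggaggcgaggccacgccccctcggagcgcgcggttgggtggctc

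In Mcm5 and in the upstream pair of Mcm6, 2 E2F matches on opposite strands overlap within a run of 12 capitals. Mcm6 has another E2F match that starts 47 bases before its annotated start. Cdc6 has 1 that starts 138 bases before its RefSeq start, inside the gene as GENCODE M21 places it. Pcna and Rrm2 are shown as members with a CCAAT box and no E2F match in this window, which says only that these letters are not in it. E2F letters were in 13 of the 35 member windows (37.1%), against 744 of 32851 windows over all genes (2.27%). For the mitosis genes described further down they were in 3 of 35 windows (8.57%), and for other DNA replication genes in 18 of 65 (27.7%). CCAAT boxes were in 20 of 35 member windows (57.1%), in 26 of 35 of mitosis genes (74.3%) and in 12289 of all 32851 (37.4%). By gene, 13 of 30 members held E2F letters, 18 a CCAAT box, 9 both and 8 neither. E2f1, Ccne1, Tyms and Fen1 are among those with neither. The E2f1 window lay wholly inside the gene, whose 5′ end is at 154569892 in GENCODE M21. The bases before that end were therefore not searched for E2f1. The Mcm7 windows lay inside their gene too. A match is a description of the sequence and not a measured binding site.

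The levels of the 38 genes varied together from library to library, in both genotypes. Together they took 0.240%, 0.323% and 0.355% of all counts in KO 1, 2 and 3 (Wilson 95% intervals 0.236 to 0.245%, 0.317 to 0.329% and 0.350 to 0.360%). In WT 1, 2, 3 and 4 they took 0.180%, 0.462%, 0.358% and 0.332% (0.176 to 0.185%, 0.456 to 0.467%, 0.353 to 0.364% and 0.326 to 0.337%), where the intervals cover counting error only. Their summed level was 2453, 3191 and 3699 CPM in the KO libraries, against 1943, 4089.7, 3545 and 3431 CPM in the WT libraries. WT 1 and KO 1 were thus the lowest of the 7, WT 2 the highest, and the groups overlapped. The mean was 3115 ± 626 CPM in KO (SD, n = 3) and 3252 ± 919 CPM in WT (SD, n = 4). In bulk RNA, fewer cells of a type and less RNA per cell cannot be told apart.

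**Figure D1:**
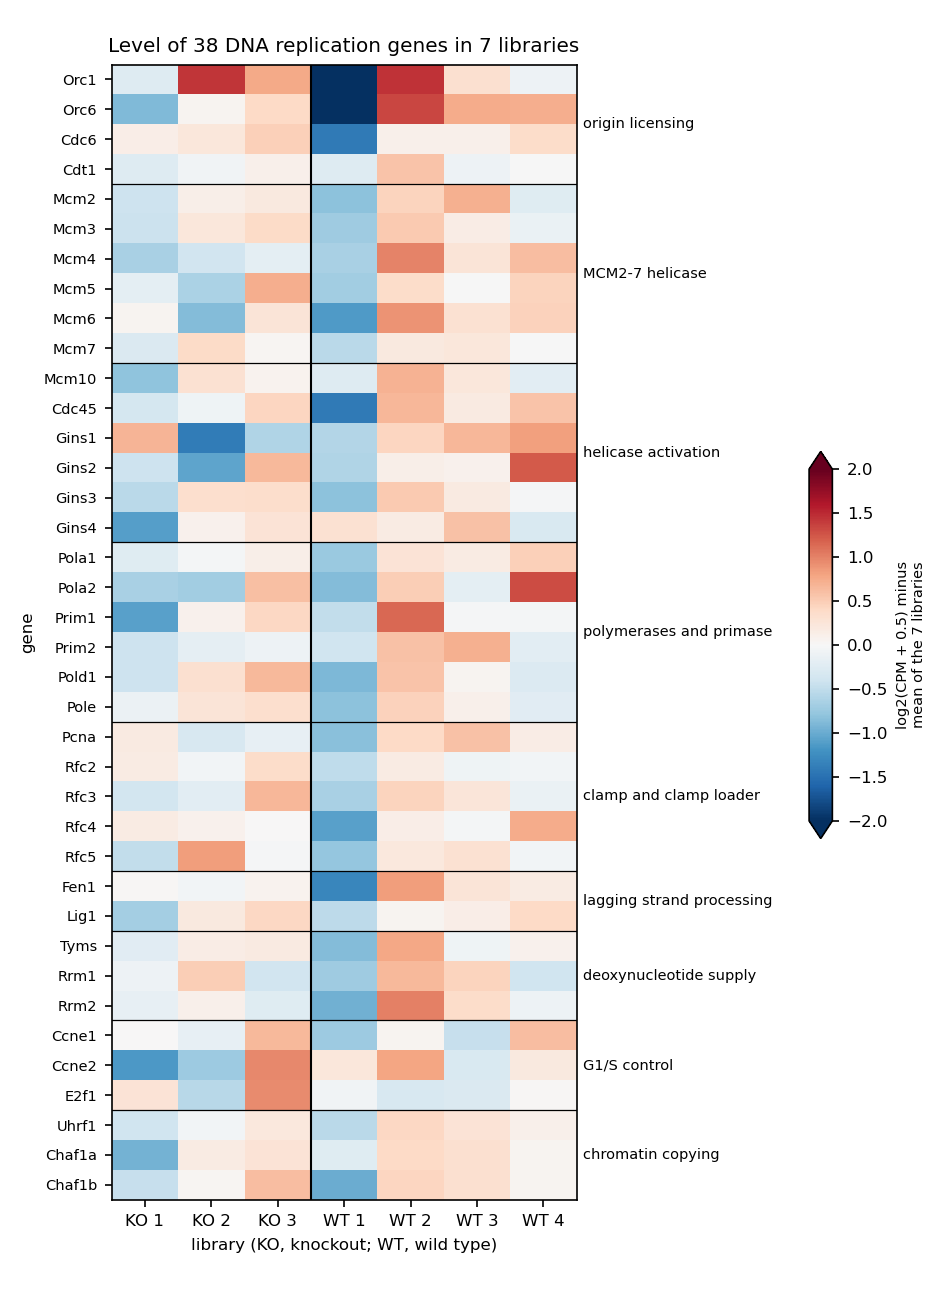
Level of each of the 38 genes (rows, by role) in each library (columns, KO left of WT), as log2(CPM + 0.5) minus the gene's mean over the 7 libraries; colours saturate at 2 log2 units either way. By log2 CPM, 36 genes lay below their mean in WT 1 and 37 above it in WT 2.

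WT 1 held the lowest level of 26 of the 38 genes, or 68.4%, where it was the lowest library for 21.2% of all tested genes. KO 1 was lowest for 9 members (23.7%, against 14.4% of all tested genes) and KO 2 for 3 (7.89%, against 11.6%). No member had its lowest level in KO 3, WT 2, WT 3 or WT 4. The highest level lay in WT 2 for 17 members (44.7%, against 12.2% of all tested genes) and in KO 3 for 10 (26.3%, against 16.3%). It lay in KO 2 for 2 members, in WT 3 for 4 and in WT 4 for 5, and never in KO 1 or WT 1. On the log2 CPM scale, the median deviation of the members from their 7-library mean was -0.36, 0.05 and 0.31 in the KO libraries, against -0.72, 0.46, 0.20 and 0.05 in the WT libraries. Over all tested genes the same medians lay between -0.02 and 0.11. The members' median SD of log2 CPM over the 7 libraries was 0.53, against 0.62 over all tested genes.

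**Figure D2:**
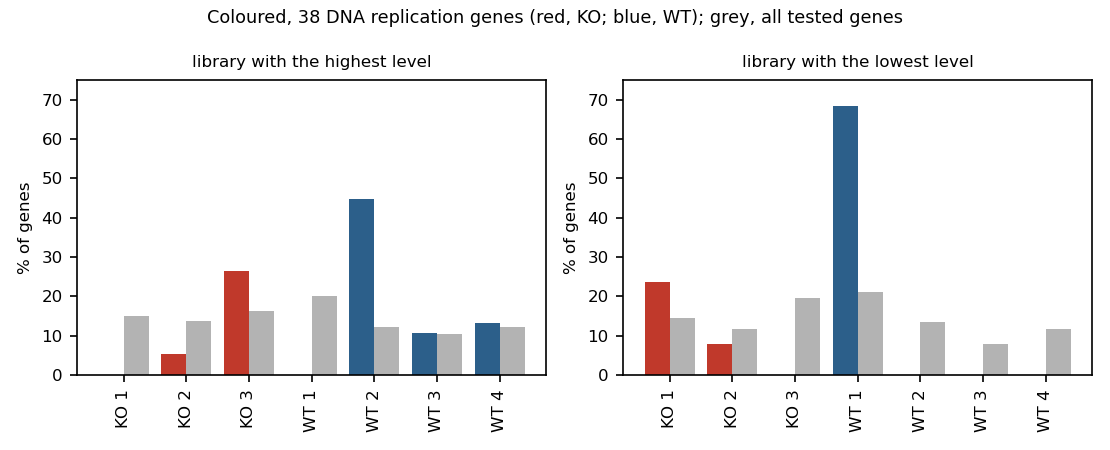
Share of genes (%) whose highest level (left) or lowest level (right) lay in each library, KO left of WT, for the 38 members (coloured) and all 12506 tested genes (grey). For the members WT 1 held 68.4% of the lowest levels and WT 2 held 44.7% of the highest.

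By summed level, T cell markers ran with this pattern and mature neutrophil markers ran against it. Neutrophil precursor markers ran against it too, high in WT 1, KO 2 and KO 1 and low in WT 2 and KO 3. Immature thymocyte markers were lowest in WT 1 and KO 1, as the members were, but highest in WT 4. Stromal, macrophage and B cell markers shared part of the pattern, in one direction or the other, and erythroid markers kept another order. The 10 mature neutrophil markers summed to 28940.0 (KO 1), 18535 (KO 2) and 2712 CPM (KO 3), against 36328, 3585, 14504 and 15650.0 CPM in WT 1 to 4. The 3 libraries with most neutrophil transcript, WT 1, KO 1 and KO 2, were the 3 with least replication transcript, in reverse order. The 12 T cell markers summed to 709.6, 891 and 1688 CPM in KO, against 623, 1398.5, 1036 and 1207 CPM in WT, again lowest in WT 1, KO 1 and KO 2. Of these 12 markers 11 were tested and Cd8a was not. WT 1 was lowest for 8 of the 11, KO 1 for 1 and WT 4 for 2. The sum rested most on Thy1, at 224 to 639 CPM, and Cd3d, at 93.5 to 441 CPM. Trac, at 59.0 to 85.2 CPM, and Cd5 were lowest in WT 4. Cd8b1 was highest in KO 2 and next in WT 1, at 7.35 and 6.57 CPM. Cd4 had 0 counts in WT 1 and ran from 1.94 to 39.9 CPM elsewhere. Of 4 immature thymocyte markers, Rag2 had 0 counts in all libraries and Rag1 stayed at or below 3.60 CPM. Dntt, the terminal transferase of immature lymphocytes, stood at 11.9, 26.0 and 40.3 CPM in KO, against 7.47, 34.5, 49.5 and 41.3 CPM in WT. Ptcra, the pre-T cell receptor alpha chain, stood at 24.1, 12.6 and 50.8 CPM in KO, against 13.1, 25.8, 20.1 and 66.5 CPM in WT, lowest in KO 2 and highest in WT 4. Of 10 neutrophil precursor markers, the primary granule gene Elane had 0 counts in all 7 libraries, and Mpo, Prtn3 and Ctsg, of the same granules, stayed at or below 1.53 CPM. The other 6 were not all near 0: Camp, Ltf and Ngp, of later granules, passed the filter on low counts, as did Chil3, which reached 93.1 CPM in KO 2 and 40.9 CPM in WT 1. Cebpe reached 9.33 CPM in KO 1 and Fcnb 3.68 CPM in KO 2. The precursor list as a whole summed to 565.7, 777 and 30.4 CPM in KO, against 779, 37.6, 87.4 and 109 CPM in WT. B cell markers summed to 92.9, 40.7 and 38.4 CPM in KO, against 4.18, 39.3, 70.9 and 28.6 CPM in WT, and macrophage markers to 788, 410.1 and 142 CPM in KO, against 342, 110.1, 285 and 352 CPM in WT. KO 1 was highest for both. WT 1 was lowest for the B cell markers, as for the members. The macrophage markers were lowest in WT 2 and KO 3, the libraries where the members' sum was highest. Erythroid markers summed to 629, 688 and 2023 CPM in KO, against 1056, 459, 2010.2 and 252 CPM in WT, lowest in WT 4. Stromal markers summed to 208, 153 and 247 CPM in KO, against 108, 282, 92.8 and 104 CPM in WT. They were highest in WT 2 and KO 3, as the members were, and lowest in WT 3. Epcam had 0 counts in all libraries. The part of these cell types in the replication genes was not tested.

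**Figure D3:**
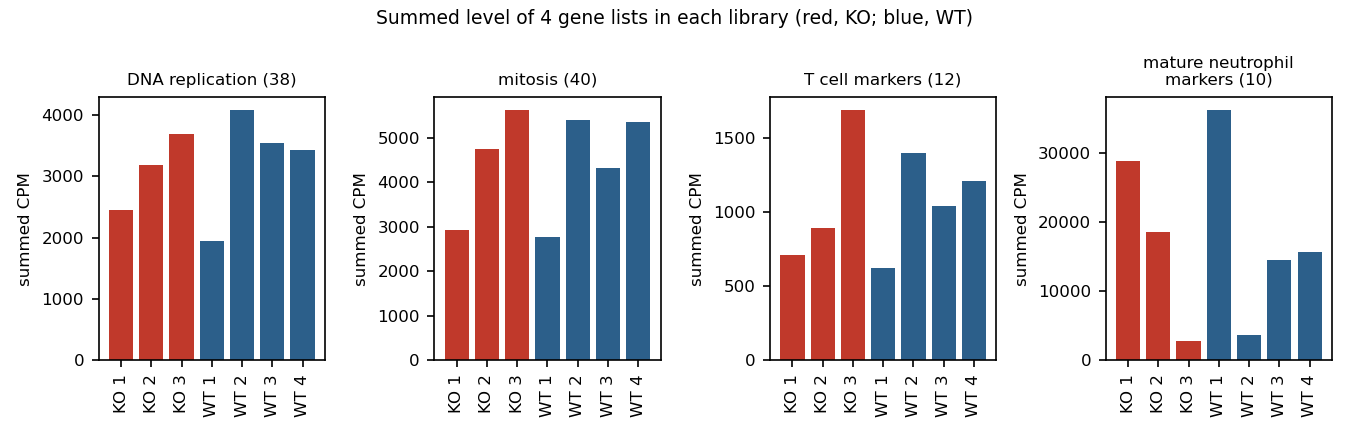
Summed CPM in each library (KO red, left; WT blue, right) for the 38 DNA replication genes, 40 mitosis genes, 12 T cell markers and 10 mature neutrophil markers; each panel has its own axis from 0. The first 3 lists are lowest in WT 1 and KO 1, where the neutrophil markers, at 36328 and 28940.0 CPM, are highest.

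The comparison of KO with WT asked whether granulocytes that lack Alox15 differ in replication transcripts, and none of the 38 genes passed. Log2 fold changes (KO over WT) were positive for 14 members and negative for 24, from -0.83 for Mcm4 to 0.51 for E2f1, with a median of -0.15 against 0.01 over all tested genes. In edgeR's quasi-likelihood test with Benjamini-Hochberg adjustment over all genes, 0 members were higher and 0 lower at an adjusted p under 0.05, where the share over all 12506 genes was 0%. At an unadjusted p under 0.05 there were 0 members too, against 1.23% of all genes, and the smallest p was 0.0573 (adjusted p = 0.99995, the same for each member). DESeq2 called 0 members, against 0.00483% of its 20692 genes, and no member reached an unadjusted p of 0.05 in it. By limma-voom 0 members were called and 1, Mcm4, reached that unadjusted level, for which the limma-voom share over all genes is not given here. For 0 of 38 members did the KO and WT libraries not overlap, against 3.13% of all tested genes.

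These libraries can bound a difference for part of the set. The standard error of a member's log2 fold change ran from 0.27 to 1.04, with a median of 0.39. For 13 of the 38 members the 95% interval from the edgeR fit lay within a 2-fold change either way, and for 35 it lay within 4-fold. The median fold change depended on single libraries: it was 0.02 without KO 1 and 0.05 without WT 2, against -0.32 without KO 3 and -0.28 without WT 1. Within the description stem that holds both groups, KO 1 against the 4 WT libraries, it was -0.51, with 5 members positive and 33 negative; this rests on 1 KO library, assumed to vary like WT. With the stem as a covariate it was -0.43, with 7 positive and 31 negative and 0 called.

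**Figure D4:**
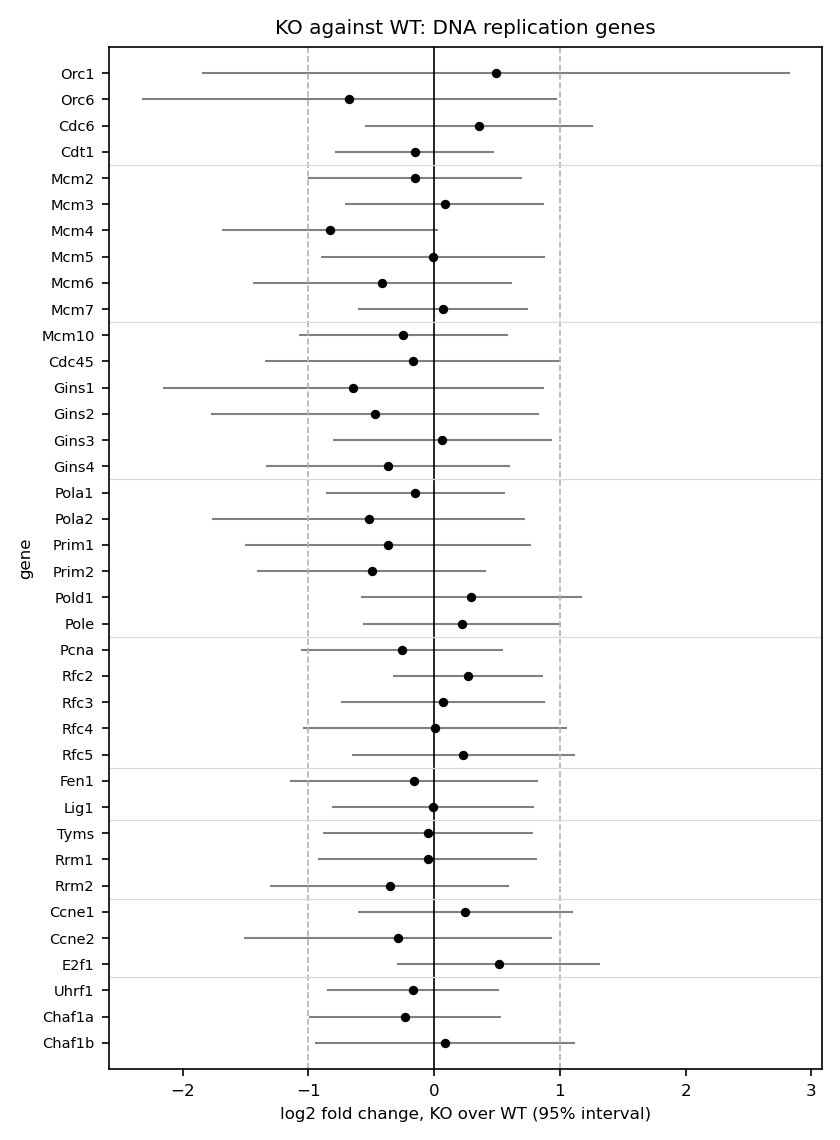
Log2 fold change of each gene, KO over WT, with its 95% interval from edgeR; the vertical lines mark no change and 2-fold changes. All 38 intervals include 0, and Orc1, Orc6 and Gins1, genes with few counts, have the widest.

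Origin licensing genes had the largest median SD of log2 CPM over the libraries among the roles, 0.95. This came from Orc1 and Orc6, at 1.78 and 1.27, whose counts were low. Cdc6 and Cdt1 had SDs of 0.64 and 0.28, and Cdt1 was among the least variable members. Cdt1, the loading factor that brings MCM2-7 to origins and the member of this role with the highest mean level, stood at 76.4, 86.7 and 98.2 CPM in KO, against 76.5, 136, 85.0 and 90.3 CPM in WT. WT 2 stood above the other libraries and the rest lay close together. Cdc6, the ATPase that loads the helicase with Cdt1, stood at 40.8, 43.8 and 52.4 CPM in KO, against 13.7, 39.9, 40.3 and 48.4 CPM in WT. WT 1 was low and all 3 KO libraries lay within or above the other WT values (log2 fold change 0.36 ± 0.41, SE). Orc1 and Orc6, subunits of the origin recognition complex, rested on few counts: Orc1 had 23, 51 and 49 counts in KO, against 0, 100, 35 and 19 in WT. The 0 of WT 1 allows up to 0.896 CPM by a limit of 3 counts. Orc6 stood at 6.80, 13.5 and 17.1 CPM in KO, against 2.09, 33.5, 22.0 and 21.7 CPM in WT, so each KO library lay below WT 2, 3 and 4 and above WT 1. Its log2 fold change of -0.68 ± 0.74 (SE) did not pass in edgeR (unadjusted p = 0.380).

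The 6 subunits of the MCM2-7 ring, the motor that unwinds DNA, summed to 753, 945 and 1146 CPM in KO, against 569, 1306, 1109 and 1009.8 CPM in WT. Mcm2 stood at 91.6, 132 and 139 CPM in KO, against 69.0, 167, 199 and 104 CPM in WT. Mcm3 stood at 188, 296 and 330.5 CPM in KO, against 154, 363, 279 and 229 CPM in WT. Mcm4 stood at 38.9, 46.9 and 53.6 CPM in KO, against 39.1, 123, 73.7 and 94.0 CPM in WT. Mcm4 was the member with the smallest p: the 3 KO libraries and WT 1 lay together, and WT 2, 3 and 4 lay above them. Its log2 fold change was -0.83 ± 0.38 (SE, edgeR unadjusted p = 0.0573), -0.57 without WT 2 and -1.07 without WT 1 (unadjusted p = 0.00896, adjusted p = 0.9998). Mcm5 stood at 141, 103 and 265 CPM in KO, against 98.9, 207, 159.9 and 218 CPM in WT. Mcm6 stood at 93.5, 49.0 and 107 CPM in KO, against 40.6, 168, 111 and 124 CPM in WT. Mcm7 stood at 199.8, 318 and 250.1 CPM in KO, against 167, 279, 286 and 242 CPM in WT. KO 3 was the highest of the 7 for Mcm5 and KO 2 for Mcm7, while KO 2 was next to the lowest for Mcm5 and Mcm6, so the subunits did not keep one order. Fold changes of Mcm2, 3, 5, 6 and 7 were -0.15 ± 0.38, 0.08 ± 0.35, -0.01 ± 0.40, -0.41 ± 0.46 and 0.07 ± 0.30 (log2, SE). The sign of Mcm5 turned in DESeq2, under RLE and upper-quartile scaling and under the replicate block. Those of Mcm3 and Mcm7 turned with the stem as a covariate. The signs of Mcm2, Mcm3, Mcm5 and Mcm7 also turned when single libraries were left out.

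**Figure D5:**
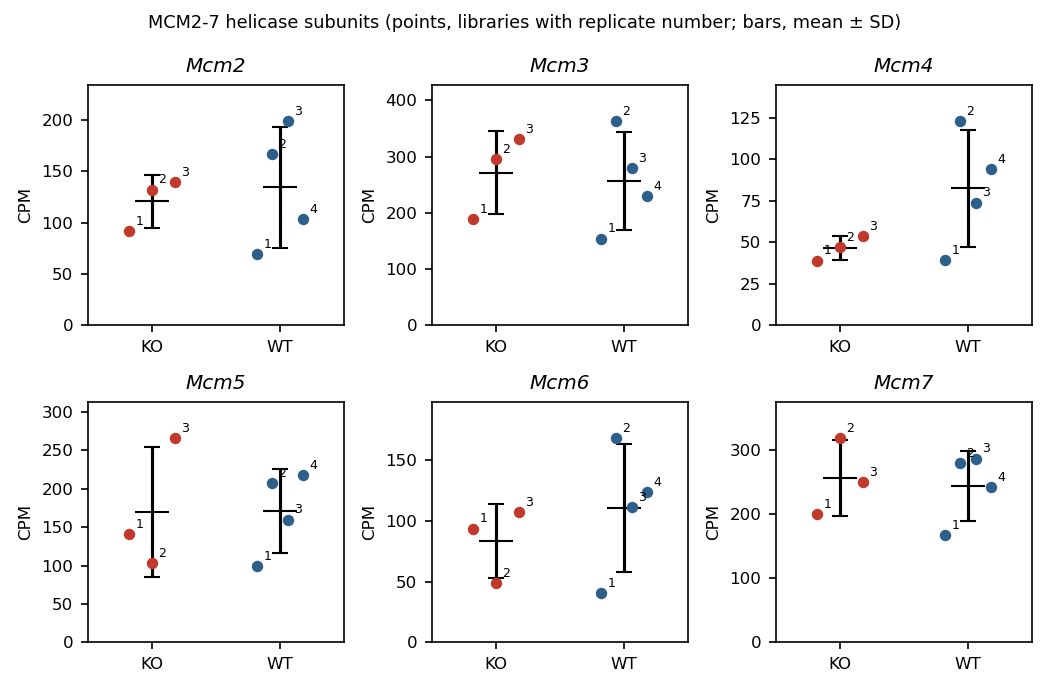
CPM of the 6 MCM2-7 subunits in each library (points, numbered by replicate; KO left, WT right) with the mean ± SD of each group, on axes from 0. KO and WT points overlap in every panel; for Mcm4 the KO points lie between 38.9 and 53.6 CPM and the WT points between 39.1 and 123.

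The 6 genes for factors that turn the loaded helicase into a moving one had their lowest summed levels in KO 1 and WT 1, though not each gene did. The sum stood at 87.3, 138 and 155 CPM in KO, against 95.6, 186, 157 and 149 CPM in WT. Mcm10, an initiation factor that stays with the fork and had the highest mean of this role, stood at 24.7, 53.9 and 46.0 CPM in KO, against 36.5, 71.1, 51.0 and 37.6 CPM in WT. Its lowest library was KO 1, not WT 1 (log2 fold change -0.24 ± 0.37, SE). Cdc45, which joins MCM2-7 and GINS in the active helicase, stood at 11.1, 13.5 and 19.5 CPM in KO, against 5.08, 23.0, 16.3 and 21.4 CPM in WT. The 4 GINS genes, whose products form 1 complex, differed among themselves. Gins1 stood at 10.7, 2.14 and 4.09 CPM in KO, against 4.18, 8.93, 10.5 and 11.9 CPM in WT. It was lowest in KO 2, from 7 counts, and highest in WT 4, and KO 1 was next to the highest (log2 fold change -0.64 ± 0.68, SE). Its log2 fold change was -1.49 without KO 1 (edgeR unadjusted p = 0.0715) and -0.27 without KO 2, and 0.26 with the stem as a covariate. Gins3 was lowest in WT 1 and highest in WT 2 (18.8 and 48.5 CPM). Gins2 was also lowest in KO 2 and highest in WT 4 (5.82 and 30.2 CPM), and Gins4 lowest in KO 1 and highest in WT 3 (8.36 and 28.0 CPM), with WT 1 next to the highest at 23.0 CPM. Gins2 has an exon of another gene on the opposite strand within 500 bases of its 3′ end.

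Polymerase and primase genes summed to 236, 309 and 379 CPM in KO, against 179, 422, 330.1 and 377 CPM in WT. Pola1, the X-linked catalytic subunit of polymerase alpha and the member of this role with the highest mean, stood at 117, 134 and 151 CPM in KO, against 82.8, 167, 154 and 192 CPM in WT. The 2 KO libraries with female transcripts, KO 2 and KO 3, lay inside the WT range (log2 fold change -0.15 ± 0.32, SE). Prim2, the large primase subunit, stood at 13.0, 15.3 and 16.4 CPM in KO, against 13.1, 26.6, 29.0 and 15.1 CPM in WT. The KO libraries lay close to WT 1 and WT 4 and below WT 2 and WT 3 (log2 fold change -0.50 ± 0.41, SE, edgeR unadjusted p = 0.251). Pold1 and Pole, the catalytic subunits of the lagging and leading strand polymerases, had positive log2 fold changes of 0.30 ± 0.39 and 0.22 ± 0.35 (SE), and Prim1 and Pola2 negative ones of -0.37 ± 0.51 and -0.52 ± 0.56. Pola2 ran from 16.5 to 41.5 CPM in KO and from 14.6 to 67.5 CPM in WT.

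Genes of the clamp and its loader were lowest in WT 1 alone, with 404, 379.5 and 434 CPM summed in KO, against 236, 501, 514 and 415 CPM in WT. Pcna, the ring that holds polymerases on DNA, stood at 223, 157 and 176 CPM in KO, against 110.0, 260.0, 296 and 217 CPM in WT. WT 3 and WT 2 were highest and WT 1 lowest (log2 fold change -0.26 ± 0.36, SE). Rfc2, a subunit of the clamp loader, stood at 81.3, 70.1 and 93.7 CPM in KO, against 50.8, 81.9, 68.5 and 70.2 CPM in WT. It was among the least variable members, with an SD of log2 CPM of 0.28 and a log2 fold change of 0.27 ± 0.27 (SE, edgeR unadjusted p = 0.340). Rfc3, Rfc4 and Rfc5, further loader subunits, had log2 fold changes of 0.07, 0.01 and 0.23. Pcna has named pseudogene copies in GENCODE M21, so its reads may be shared.

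Lig1, the ligase that joins Okazaki fragments, had the highest mean level in its role. Lig1 stood at 327, 597 and 694 CPM in KO, against 364, 544, 574 and 688 CPM in WT. KO 1 and WT 1 were low and the other 5 libraries lay between 544 and 694 CPM (log2 fold change -0.01 ± 0.36, SE). Fen1, the flap nuclease that trims those fragments, stood at 38.9, 37.1 and 40.3 CPM in KO, against 15.2, 69.1, 45.7 and 42.9 CPM in WT. The KO libraries lay close together, WT 1 lay below them and the other WT libraries above.

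Deoxynucleotide supply genes had the widest span of summed level among the roles, 2.99-fold from WT 1 to WT 2. Rrm1, the large subunit of ribonucleotide reductase, stood at 132, 201 and 109 CPM in KO, against 86.95, 222, 193 and 108 CPM in WT. WT 2, KO 2 and WT 3 lay above the other libraries, and WT 1 was lowest (log2 fold change -0.05 ± 0.39, SE). Rrm2, the small subunit that is made in S phase, stood at 56.6, 68.0 and 53.6 CPM in KO, against 32.3, 129, 82.2 and 59.3 CPM in WT. Tyms, thymidylate synthase, stood at 54.2, 70.4 and 72.1 CPM in KO, against 34.7, 109, 60.0 and 67.5 CPM in WT; it too has a named pseudogene. All 3 fold changes were negative and 0 passed.

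KO 3 held the highest level of all 3 G1/S control genes. E2f1, a transcription factor that switches on S phase genes, stood at 53.1, 29.7 and 85.3 CPM in KO, against 41.8, 35.2, 35.8 and 44.5 CPM in WT. KO 3 was highest and KO 2 lowest, so the KO libraries lay on both sides of WT. WT 1, the lowest library for 26 members, ranked below WT 4 and above WT 2 and WT 3. Its log2 fold change, the largest positive one, was 0.51 ± 0.36 (SE, edgeR unadjusted p = 0.187). In edgeR it was 0.02 without KO 3 and 0.82 without KO 2 (unadjusted p = 0.0362, adjusted p = 0.9997), and in limma-voom 0.12. Ccne1, cyclin E1, which activates Cdk2 at S phase entry, stood at 53.5, 47.2 and 83.7 CPM in KO, against 32.0, 55.0, 38.5 and 81.5 CPM in WT. KO 3 and WT 4 stood above the other libraries (log2 fold change 0.25 ± 0.38, SE). It was -0.11 without KO 3. Ccne2, cyclin E2, stood at 8.36, 11.3 and 37.4 CPM in KO, against 22.4, 33.4, 15.3 and 22.0 CPM in WT. KO 3 was again highest and KO 1 lowest. The log2 fold change of Ccne2 was -0.29 ± 0.55 (SE), and -1.32 without KO 3 (edgeR unadjusted p = 0.0239, adjusted p = 0.9971).

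Chromatin copying genes summed to 122, 199 and 232 CPM in KO, against 142, 254, 235 and 201 CPM in WT. Chaf1a, the large subunit of the histone chaperone CAF-1, stood at 46.9, 102 and 109.6 CPM in KO, against 76.8, 119.8, 114 and 94.3 CPM in WT. KO 1 was lowest and the other KO libraries lay inside the WT range (log2 fold change -0.23 ± 0.34, SE). Under the stem covariate its log2 fold change was -1.11 (unadjusted p = 0.0306, adjusted p = 0.9998), a value that rests on KO 1. Uhrf1, which brings the maintenance methyltransferase to newly copied DNA, stood at 63.4, 80.6 and 97.4 CPM in KO, against 57.7, 112, 101 and 90.02 CPM in WT. Chaf1b, the next CAF-1 subunit, ran from 11.5 to 24.7 CPM in KO and from 7.77 to 21.6 CPM in WT.

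Of 62 other DNA replication genes, all tested, 31 had positive and 31 negative log2 fold changes (median 0.01), and 0 passed in any of the tests. At an unadjusted p under 0.05 there were 0 in edgeR, 1 in DESeq2 and 3 in limma-voom. The share of all genes at that level was 1.23% in edgeR and is not given here for DESeq2 and limma-voom. WT 1 was lowest for 26 of the 62 (41.9%) and KO 1 for 13 (21.0%). Gene by gene the list went the way of the members. By log2 CPM, 49 of the 62 lay below their mean in WT 1 and 43 in KO 1, and 47 lay above it in WT 2. Their summed level did not follow the members, and Cdkn1a alone gave 1901 CPM of it in WT 1. The sum was 4533, 5599.7 and 5062 CPM in KO, against 5967, 4938, 5140.2 and 5462 CPM in WT, highest in WT 1 and spanning 1.32-fold. The groups did not overlap for 1 of them, Orc3, an origin recognition subunit, at 24.7, 24.8 and 28.0 CPM in KO, against 10.8, 24.1, 24.4 and 21.2 CPM in WT. The share of all tested genes with KO above WT was 1.57%. The 4 with the smallest p were Dscc1, a subunit of an alternative clamp loader, the histone chaperone Asf1b, Rrm2b, a ribonucleotide reductase subunit induced by p53, and Orc4. Their log2 fold changes were -1.85 ± 0.85, -0.54 ± 0.33, 0.56 ± 0.39 and -0.66 ± 0.48 (SE). Dscc1 stood at 0.778, 0.919 and 5.84 CPM in KO, against 4.48, 13.0, 11.1 and 8.21 CPM in WT. Cdkn1a and Samhd1 were chosen after their values were seen, as genes of this list that were high where the members were low. Cdkn1a, the p21 inhibitor of cyclin-dependent kinases, stood at 741, 699 and 216 CPM in KO, against 1901, 149, 439 and 472 CPM in WT. Samhd1, which breaks down deoxynucleotides and is known from myeloid cells, stood at 435, 376 and 43.8 CPM in KO, against 584, 56.2, 245 and 212 CPM in WT. Both were highest in WT 1, the library with the lowest member sum. Other genes of the list that are known to restrain cell cycle entry or replication were divided. Cdkn1b, the p27 inhibitor, and Rb1, the retinoblastoma protein, were also highest in WT 1, at 432 and 89.0 CPM. Gmnn, the geminin inhibitor of Cdt1, stood at 7.78, 13.8 and 23.4 CPM in KO, against 8.67, 34.6, 21.5 and 26.2 CPM in WT, and the repressors Rbl1 and E2f8 were likewise lowest in KO 1 and next lowest in WT 1. The repressor E2f7 was lowest in WT 3 and WT 1, at 19.1 and 19.4 CPM.

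The 40 mitosis genes, the neighbouring set of the cell cycle, ran alongside the replication genes. They summed to 2920.3, 4763 and 5637 CPM in KO, against 2769, 5399.8, 4329 and 5366 CPM in WT. WT 1 was lowest for 22 of the 40 and KO 1 for 17, and WT 2 was highest for 16 and KO 3 for 10. KO over WT, 12 were positive and 28 negative (median log2 fold change -0.10), and 0 passed in any of the tests. At an unadjusted p under 0.05 there were 0 in edgeR, 0 in DESeq2 and 1 in limma-voom. The smallest p values belonged to Pttg1, the securin that guards sister chromatids, the kinesins Kif2c and Kif23, and Prc1, which bundles spindle microtubules. Their log2 fold changes were -0.48 ± 0.35 for Pttg1, -0.74 ± 0.64 for Kif2c, 0.39 ± 0.36 for Kif23 and 0.42 ± 0.36 for Prc1 (SE).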

How the data were processed

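RNA from 7 libraries of mouse granulocytes was measured. Per the labels' protocols, column-purified, DNase-treated polyA RNA was made into libraries with a QuantSeq kit. The authors deposited 1 table of whole numbers per Ensembl gene. The submitters' processing notes name RSEM (1.2.3), the build mm10 and DESeq2 without saying what each was used for. RSEM gives expected counts, so the values the authors deposited may be rounded estimated counts. The annotation release, strand setting and treatment of multiply mapped reads are not given in the sources used here. With the strand setting unknown, Mcm7, Gins2, Rfc4, Rfc5, Fen1, Ccne2 and Chaf1a are uncertain, since an exon of a gene on the other strand lies in the last 500 bases of each (GENCODE M21, GRCm38). Reads without molecular identifiers are not independent molecules.

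Of 51789 IDs, 51596 matched a symbol. Tests used edgeR 4.0.16 in R 4.3.3 on all 7 libraries: filterByExpr, TMM, a robust quasi-likelihood F test of KO against WT and Benjamini-Hochberg adjustment over 12506 genes, calling genes at an adjusted p under 0.05. CPM use TMM library sizes. Log2 CPM have a prior count of 2. Each fold change has a standard error derived from that F test. Alternatives were DESeq2 1.42.0, limma-voom (limma 3.58.1) with quality weights, other scalings and filters, left-out libraries, a replicate block and the description stem.

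The members, the lists and the tests were chosen with earlier results of these data known. Members named with values in every library were the one with the highest mean in each role, the 3 with the smallest p per direction, Pcna, E2f1 and Mcm2 to Mcm7. Of each other list the 4 genes with the smallest p were named. Orc1, Orc6, Cdc45, Fen1, Tyms, Rrm2, Ccne2, Uhrf1, Orc3, Dscc1 and Gmnn were also given in full, chosen after their values were seen. No 2 libraries agreed within sampling noise (chi-square of at least 22.1 per degree of freedom over genes).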

Additional observations from a re-analysis of the deposited data

Results flagged for a closer look

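Among the 4 WT libraries, WT 1 stood apart from the other 3 for 2 of the 38 members. The measure was the gap between it and the next library relative to the range, on the log2 CPM scale. Cdc6 stood at 13.7 CPM in WT 1, against 39.9 to 48.4 CPM in WT 2, 3 and 4. Orc6 stood at 2.09 CPM in WT 1, from 7 counts, against 21.7 to 33.5 CPM in the other 3. Chance flags about 1 in 20 groups, which is close to the 2 of 38 found. The members varied together across libraries, so these flags are not independent of each other. The 3 KO libraries were too few for this check.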

How the results depend on the processing

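No member, other DNA replication gene or mitosis gene was called in any alternative run. Over all genes, edgeR called 0 and DESeq2 called 1, Impdh2-ps, which is not a member. The replicate number showed no clear pairing of the samples. Across genes, deviations of same-numbered KO and WT libraries from their group means correlated at 0.35, -0.22 and -0.18. KO 1 correlated best with its own number, and KO 2 and KO 3 with other numbers. Deviations from the mean of so few libraries are not independent, so these values cannot exclude a pairing. As a replicate block, the number gave 0 called members and a median log2 fold change of 0.04. The members' median ran from -0.32 to 0.05 with 1 library left out, and was -0.51 to 0.04 over the other settings, including -0.16 without WT 2 and KO 3 together and -0.11 without WT 1 and KO 1 together, both chosen after seeing the data. Signs turned only for genes that did not pass, and the cause was not tested. Mcm5 turned to 0.0036 (DESeq2), 0.0033 (RLE), 0.0041 (upper quartile) and 0.0891 (replicate block). Under the replicate block Pola1 was 0.0516 and Lig1 0.0846. With the stem as covariate Mcm3 was -0.45, Mcm7 -0.29, Gins1 0.26 and Pcna 0.0117; within the stem that holds both groups Mcm3 was -0.52, Mcm7 -0.35, Gins1 0.20 and Ccne1 -0.0199. Rrm1 was 0.0876 by limma-voom. Without WT 2 and KO 3, Rrm1 was 0.31, Ccne1 -0.0626 and E2f1 -0.017, and without WT 1 and KO 1 Lig1 was 0.12. With 1 library left out, signs also turned for Mcm2 (-0.37 to 0.10), Mcm5 (-0.56 to 0.25), Mcm10 (-0.47 to 0.0233), Lig1 (-0.30 to 0.25), Rrm1 (-0.34 to 0.19), Chaf1a (-0.51 to 0.067), Mcm7 (-0.12 to 0.22), Mcm3 (-0.16 to 0.30), Ccne1 (-0.11 to 0.57), Cdt1 (-0.32 to 0.0554). Totals of 3228292 to 5657192 counts leave Orc1, Orc6 and Gins1 with few counts and wide intervals.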
